A study of Mus musculus with 14 samples.

Results

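The genes described here form the lipoprotein lipase axis of mouse liver: the lipases Lpl, Lipc and Lipg, the maturation factor Lmf1, the endothelial anchor Gpihbp1, the inhibitor Angptl4, and the receptors Vldlr and Lrp1. They were chosen by gene symbol, for their known roles, but with earlier results of these data already known. All 8 were found among the 25212 genes of the count table. All 8 passed the filter on low counts and were among the 14252 genes tested.

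Lipoprotein lipase hydrolyses the triglyceride of chylomicrons and very-low-density lipoprotein at the capillary wall, mainly in adipose tissue, heart and skeletal muscle. In the adult liver its transcript is normally low, and hepatic lipase is the lipase typical of hepatocytes. Remnant particles are then taken up by receptors of the LDL receptor family.

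RNA sequencing was done on 14 livers from male C57BL/6 mice. They were fed a high-fat diet from 6 weeks of age, for 12 weeks before allocation to a group, and it was continued after surgery. The DIO group (diet-induced obese, n = 5) had no surgery. In the GB-IL group (n = 4) the gallbladder was joined to the ileum and the common bile duct ligated. The RYGB group (n = 5) had a Roux-en-Y gastric bypass. Livers were labelled as taken 8 weeks after surgery, or at the matching time in DIO mice, and each was from a separate mouse. Since the DIO mice were not operated on, the effect of having an operation and that of the altered bile or food route cannot be told apart. The study also reported lower body weight, more faecal fat and less hepatic steatosis in both operated groups. It reported lower food intake in both, though higher intake in RYGB during calorimetry. No pair-fed mice are among these livers, so effects of these differences cannot be told apart from the others either. Total counts per liver ranged from 18223135 to 28656631.

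Levels are given as CPM, read counts scaled to a common library size by the trimmed mean of M-values (TMM). Some livers stood apart from their group over all genes. On the first principal component of log2 CPM, which held 47.9% of the variance, GB-IL 1 lay at 143 and GB-IL 2 at 114, whereas GB-IL 4 lay at -37.5, among the DIO livers, which spanned -48.6 to -23.5. GB-IL 3 lay at 20.4, and RYGB 5, at 18.2, lay above the other RYGB livers.

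Marker lists for other cell types differed between the same livers, given here as summed CPM of the total count. The gene that leads a list is the one with the highest mean over the 14 livers, and it need not lead in each liver. The 11 genes for skeletal and cardiac muscle summed to 1684 in GB-IL 1, with Acta1 the most abundant, to 8.32 in GB-IL 2, and to at most 3.81 in each other liver. The 6 pancreatic acinar genes, led by Ctrb1, summed to 1395 in GB-IL 1, to 2.44 in GB-IL 2 and to at most 1.56 elsewhere. Acta1 had 11540 counts in GB-IL 1 and at most 21 in each other liver, and Ctrb1 had 16475 and at most 8. Of the muscle genes, 1, 1, 6 and 6 were at 0 in GB-IL 1 to 4, and of the acinar genes 0, 2, 3 and 5. The 9 hepatocyte genes, led by Alb, summed to between 105961 and 167673 in every liver, but single genes differed. Ttr had 30586 and 38701 counts in GB-IL 1 and 2 and at least 115748 in each DIO liver, and Cyp2e1 had 50158 and 21948 against at least 119666. Tat had 210692 and 75595 against at most 49610, and Ahsg 297629 and 417884 against at most 180576. Of the 9 genes, 1, Fgb, passed the test as higher in GB-IL than in DIO, which 3.26% of all genes passed in either direction.

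GB-IL 4 had the highest adipocyte sum of all livers, 22.8, with 49 counts of Adipoq, 35 of Lep and 23 of Plin1, against at most 4, 1 and 1 in each other liver.

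Some macrophage genes were higher in GB-IL than in DIO. The 15 macrophage and Kupffer cell genes in the table, of 16 listed and led by Cd5l, summed to 1098, 1705, 3053 and 1243 in GB-IL 1 to 4, to between 591 and 1036 in DIO, and to between 671 and 1465 in RYGB. The 8 lipid-associated macrophage genes, led by Spp1, summed to 585, 387, 259 and 76.7 in GB-IL 1 to 4, to between 45.5 and 83.8 in DIO, and to between 80.8 and 128 in RYGB. The lipid-associated sum of GB-IL 4 lay among the DIO livers, and Cd5l, with 1237 counts in GB-IL 1, had at least 1952 in each DIO liver. Of these genes, 6 of 15 and 5 of 8 passed the test as higher in GB-IL than in DIO (edgeR quasi-likelihood, false discovery rate 0.05), which 3.26% of all genes passed in either direction. Without GB-IL 1, GB-IL 2 or any one DIO liver, 0 genes of the whole table passed by edgeR, those of the marker lists included, beside 2134 and 2400 at an unadjusted p under 0.05 without GB-IL 1 and 2. RYGB 5 had the highest endothelial sum, 932 over 12 genes led by Eng, against 335 to 500 in the other 13 livers, with Stab2 the most abundant in RYGB 5 at 5335 counts. Its neutrophil sum, 140 over 8 genes led by S100a9, was above the 2.88 to 7.19 of the other RYGB livers, and GB-IL 1 to 4 had 103, 42.4, 398 and 1.76. In GB-IL against DIO, 4 of 6 tested neutrophil genes, 3 of 6 tested cholangiocyte genes and 1 of 10 stellate cell genes passed as higher. So did 1 of 2 tested muscle genes and 1 of 1 tested acinar gene, while 1 of 6 erythroid genes passed as lower. The 6 erythroid genes, led by Hbb-bs, summed to 438, 1771, 441 and 164 in GB-IL 1 to 4. They summed to between 247 and 2436 in DIO and between 117 and 2059 in RYGB, where RYGB 5 was the highest. The cholangiocyte genes, led by Sox9, summed to 34.1, 46.7, 19.1 and 18.8 in GB-IL 1 to 4 and to at most 18.2 in DIO. In RYGB they summed to between 12.6 and 20.4, a range that held GB-IL 3 and 4. In GB-IL 1 and 2 Krt19 was the most abundant of them, with 212 and 243 counts. The 10 stellate cell and fibroblast genes, led by Dcn, summed to 872 in GB-IL 1 and 593 in RYGB 5, and to between 209 and 411 in each other liver. Of these genes, Des had 4627 counts in GB-IL 1, the liver with the muscle sum of 1684, and at most 224 in each other liver. No gene of these lists was at 0 in all 14 livers.

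The first question was whether the lipases differed after bile diversion or bypass. Lpl (ENSMUSG00000015568, mm10 chr8:68880491-68907448) encodes lipoprotein lipase itself. Its level was 168, 178, 55.2 and 38.1 CPM in GB-IL 1 to 4, and 18.1, 21.8, 24.8, 9.84 and 8.75 CPM in DIO 1 to 5. In RYGB 1 to 5 it was 37.5, 40.5, 29.4, 25.9 and 86.2 CPM. Every GB-IL and every RYGB liver was above the highest DIO liver, and GB-IL 1 and 2 were above all others. The counts behind these levels were 174 to 487 in DIO and 1034 to 3200 in GB-IL.

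The mean level of Lpl was 109.9 ± 73.5 CPM in GB-IL (SD, n = 4), 43.9 ± 24.4 CPM in RYGB (n = 5) and 16.7 ± 7.13 CPM in DIO (n = 5). Lpl was higher in GB-IL than in DIO by a log2 fold change of 2.72 (SE 0.499), a 6.59-fold difference, in 4 of 4 livers (edgeR quasi-likelihood with Benjamini-Hochberg adjustment, adjusted p = 0.0278). It was the only member of the 8 that passed this test, which 3.26% of all genes tested passed. In RYGB against DIO the log2 fold change of Lpl was 1.40 (SE 0.464), with 5 of 5 livers above every DIO liver, but it did not pass the adjustment (unadjusted p = 0.00886, edgeR adjusted p = 0.457). In GB-IL against RYGB it was 1.32 (SE 0.481), with 2 of 4 GB-IL livers above every RYGB liver (edgeR adjusted p = 0.153). Both operated groups were compared with the same 5 DIO livers.

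The call for Lpl depended on single livers. Without GB-IL 1 or GB-IL 2 the log2 fold change over DIO was 2.45 or 2.38, with edgeR adjusted p of 0.0617 or 0.0581, and with both left out it was 1.46 (edgeR adjusted p = 0.207). Without DIO 1, 2, 3, 4 or 5 the edgeR adjusted p was 0.0720, 0.0716, 0.0618, 0.0830 or 0.0942, at log2 fold changes of 2.76, 2.84, 2.91, 2.58 and 2.56. Without GB-IL 4 it was 0.00104, at 3.00. A fit of the compared groups only gave 0.0844 at the same log2 fold change, and over all alternatives the adjusted p ranged from 1.08e-05 to 0.207. In RYGB against DIO the log2 fold change was 1.01 without RYGB 5 (edgeR adjusted p = 0.920, range over alternatives 0.0117 to 0.920). In GB-IL against RYGB it was 1.60 and passed without GB-IL 4 (edgeR adjusted p = 0.0257), and it was 0.06 with GB-IL 1 and 2 left out (edgeR adjusted p = 0.987, the ends of the range over alternatives).

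Lpl is also transcribed in muscle, macrophages and adipocytes. GB-IL 2 had as high a level of Lpl as GB-IL 1, with a muscle sum of 8.32 CPM against 1684. The 6 adipocyte genes, led by Adrb3, summed to 1.96, 3.85, 11.7 and 22.8 CPM in GB-IL 1 to 4, to between 5.16 and 14.5 CPM in DIO, and to between 8.45 and 14.9 CPM in RYGB. Adrb3 had 12 and 66 counts in GB-IL 1 and 2 and at least 90 in each DIO liver. Adipoq had 4 and 0 counts in GB-IL 1 and 2 and at most 1 in each DIO liver. In GB-IL 1 the sum and Adipoq thus differed in direction. Lipid-associated macrophage genes had their highest sums in GB-IL 1 and 2. The parts of muscle, adipocytes and macrophages in the Lpl result were not tested. In whole liver, more cells of a type and more RNA per cell cannot be told apart.

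**Figure D1:**
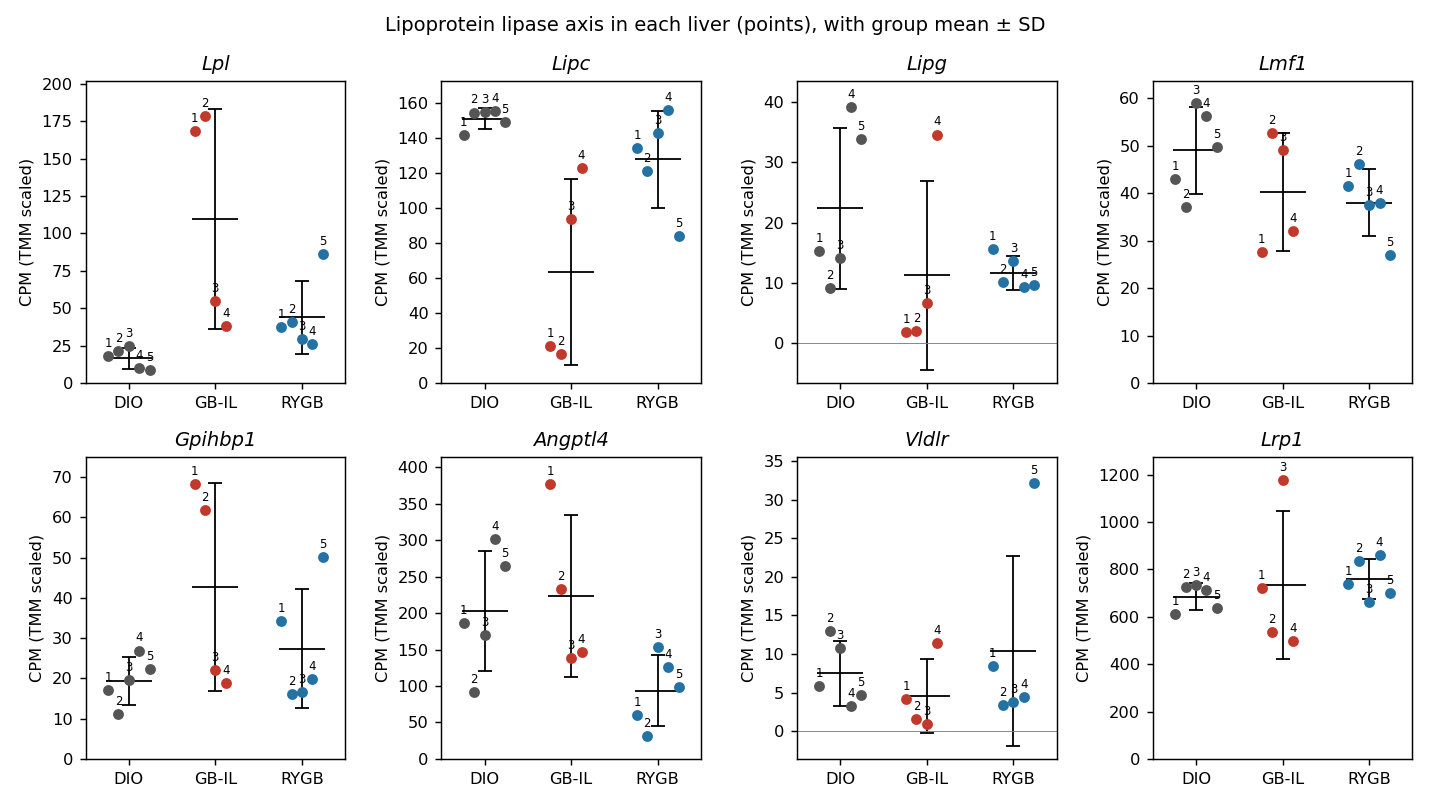
Level of each member in each liver, in TMM-scaled CPM on a linear axis, by group; points are livers numbered by replicate, the horizontal line is the group mean and the bar is ± SD (n = 5 DIO, 4 GB-IL, 5 RYGB). Lpl lay above every DIO liver in all GB-IL and RYGB livers, while Lipc lay below every DIO liver in all GB-IL livers.

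Lipc (ENSMUSG00000032207, chr9:70798128-70952226) encodes hepatic lipase, which acts on the triglyceride and phospholipid of remnants and high-density lipoprotein. Its level was even in DIO 1 to 5, at 141, 154, 155, 155 and 149 CPM. It was 21.3, 16.7, 93.6 and 123 CPM in GB-IL 1 to 4, and 134, 121, 143, 156 and 84.1 CPM in RYGB 1 to 5. All 4 GB-IL livers were below the lowest DIO liver, GB-IL 1 and 2 by the widest margin. RYGB overlapped DIO, with RYGB 5 the lowest.

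Mean levels were 63.6 ± 53.0 CPM in GB-IL (SD, n = 4), 128 ± 27.5 CPM in RYGB (n = 5) and 151 ± 5.95 CPM in DIO (n = 5). The log2 fold change of Lipc was -1.24 (SE 0.464) in GB-IL against DIO, with an unadjusted p of 0.0172 and an edgeR adjusted p of 0.138. It was -0.24 (SE 0.425) in RYGB against DIO (edgeR adjusted p = 0.906). The fitted level in GB-IL was 0.499 times that in RYGB (SE of the log2 fold change 0.460, unadjusted p = 0.0460, edgeR adjusted p = 0.220). Without GB-IL 4 the difference from DIO was -1.79 and passed (edgeR adjusted p = 0.0144), and that from RYGB was -1.54 and passed (edgeR adjusted p = 0.0299). With GB-IL 1 and 2 left out the difference from DIO was -0.50 (edgeR adjusted p = 0.543). Over all alternatives run for GB-IL against DIO, the adjusted p ranged from 0.0144 to 0.543, and for GB-IL against RYGB from 0.0299 to 0.804.

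Lipg (ENSMUSG00000053846, chr18:74939322-74961263) encodes endothelial lipase, a phospholipase of high-density lipoprotein. It was at 1.89, 1.92, 6.57 and 34.6 CPM in GB-IL 1 to 4, at 15.3, 9.15, 14.2, 39.3 and 33.9 CPM in DIO 1 to 5, and at 15.6, 10.1, 13.6, 9.27 and 9.69 CPM in RYGB 1 to 5. GB-IL 1 to 3 were below every DIO liver, and GB-IL 4 was among the highest of all. Its log2 fold change was -0.98 (SE 0.706) in GB-IL against DIO and -0.94 (SE 0.658) in RYGB against DIO, and neither passed (edgeR adjusted p = 0.392 and 0.715). In GB-IL against RYGB it was -0.04 (SE 0.694, edgeR adjusted p = 0.978). Without GB-IL 4, Lipg was lower in GB-IL than in DIO by -2.68 (edgeR adjusted p = 0.00484) and than in RYGB by -1.74 (edgeR adjusted p = 0.0328). Without GB-IL 1, 2 or 3, or RYGB 1 or 3, the direction against RYGB turned, at 0.31, 0.30, 0.15, 0.09 and 0.02. Over alternatives the adjusted p ranged from 0.00484 to 0.995 against DIO and from 0.0328 to 0.990 against RYGB.

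Levels can be compared between genes only per length, so the lipases were also expressed as CPM per kilobase of merged exons, over 10.478 kb for Lpl, 2.15 kb for Lipc and 4.715 kb for Lipg. On that scale the DIO means were 70.2 ± 2.77 for Lipc, 4.74 ± 2.82 for Lipg and 1.59 ± 0.681 for Lpl (SD, n = 5). In GB-IL they were 29.6 ± 24.6, 2.39 ± 3.34 and 10.5 ± 7.01 (SD, n = 4). Lpl made up 60.9%, 67.6%, 10.5% and 5.34% of the summed lipase level in GB-IL 1 to 4, from 1.08% to 3.06% in DIO, and 5.16%, 6.22%, 3.90%, 3.21% and 16.7% in RYGB 1 to 5. In GB-IL 1 and 2 Lpl was the most abundant of these lipases by this measure, and in each other liver Lipc was. These shares depend on the lengths used, since the longest annotated coding transcript is 4.115 kb for Lpl, 1.92 kb for Lipc and 3.787 kb for Lipg.

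Lmf1 (ENSMUSG00000002279, chr17:25579085-25662826) encodes lipase maturation factor 1, an endoplasmic reticulum protein needed for active lipoprotein, hepatic and endothelial lipase. Its level was 43.0, 37.0, 59.0, 56.3 and 49.7 CPM in DIO 1 to 5, 27.5, 52.6, 49.1 and 32.0 CPM in GB-IL 1 to 4, and 41.4, 46.1, 37.4, 37.9 and 27.1 CPM in RYGB 1 to 5. The groups overlapped. Log2 fold changes were -0.28 (SE 0.221) in GB-IL and -0.37 (SE 0.208) in RYGB against DIO, and 0.09 (SE 0.220) between the operated groups, with edgeR adjusted p of 0.427, 0.642 and 0.828. The last of these turned to -0.09, -0.02 and -0.03 without GB-IL 2, GB-IL 3 and RYGB 5.

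Gpihbp1 (ENSMUSG00000022579, chr15:75596628-75599481) encodes the endothelial protein that carries lipoprotein lipase to the capillary lumen and holds it there. It was at 68.3, 61.7, 22.1 and 18.8 CPM in GB-IL 1 to 4, at 17.1, 11.1, 19.6, 26.9 and 22.4 CPM in DIO 1 to 5, and at 34.3, 16.2, 16.6, 19.9 and 50.2 CPM in RYGB 1 to 5. GB-IL 1 and 2, RYGB 1 and RYGB 5 were above every DIO liver, and the remaining operated livers were within the DIO range. The log2 fold change in GB-IL against DIO was 1.14 (SE 0.429), with an unadjusted p of 0.0185 and an edgeR adjusted p of 0.142. It was 0.50 (SE 0.407) in RYGB against DIO and 0.64 (SE 0.427) in GB-IL against RYGB, with edgeR adjusted p of 0.758 and 0.371.

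Without GB-IL 4, Gpihbp1 passed against DIO, at 1.37 (edgeR adjusted p = 0.0292), and with GB-IL 1 and 2 left out it was 0.05 (edgeR adjusted p = 0.996), the ends of the range of adjusted p over alternatives. In RYGB against DIO it was 0.17 without RYGB 5, and it turned to -0.0473 by limma voom with sample quality weights. In GB-IL against RYGB it turned to -0.45 with GB-IL 1 and 2 left out. The endothelial list summed to 500, 359, 373 and 414 CPM in GB-IL 1 to 4, beside 335 to 476 CPM in DIO, and to 932 CPM in RYGB 5. Its genes differed in direction in GB-IL 1: Pecam1, Vwf, Lyve1, Eng, Stab1, Tek and Emcn had more counts than in each DIO liver, and Kdr, Ehd3, Clec4g and Stab2 fewer. The part of endothelial cells in the Gpihbp1 values was not tested.

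Angptl4 (ENSMUSG00000002289, chr17:33773750-33781830) encodes angiopoietin-like 4, a secreted inhibitor of lipoprotein lipase and a target of peroxisome proliferator-activated receptors (PPARs). Its level was 186, 91.6, 170.4, 302 and 264 CPM in DIO 1 to 5, 378, 234, 138 and 147 CPM in GB-IL 1 to 4, and 60.5, 30.8, 153, 126 and 98.0 CPM in RYGB 1 to 5. GB-IL overlapped DIO, with GB-IL 1 the highest of all livers, and RYGB 1 and 2 were below every DIO liver. Its log2 fold change was 0.14 (SE 0.445) in GB-IL against DIO (edgeR adjusted p = 0.861), and it turned to -0.24 without GB-IL 1 and -0.04 without DIO 2. It was -1.11 (SE 0.426) in RYGB against DIO (unadjusted p = 0.0195, edgeR adjusted p = 0.510).

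Between the operated groups Angptl4 differed by 1.26 (SE 0.446), higher in GB-IL, with an unadjusted p of 0.0130 and an edgeR adjusted p of 0.147. That difference passed without GB-IL 4, at 1.41 (edgeR adjusted p = 0.0468). With GB-IL 1 left out it was 0.88, and with GB-IL 1 and 2 left out it was 0.58 (edgeR adjusted p = 0.344 and 0.805; range over alternatives 0.0468 to 0.805). Per kilobase of merged exons the level of Angptl4 was 12.4 to 90.7 times that of Lpl in the DIO livers, 3.88 to 11.4 times in GB-IL and 2.25 to 15.4 times in RYGB. The size of this ratio depends on the lengths used, but its order over livers does not. By this ratio the GB-IL livers were all below the lowest DIO liver, and RYGB overlapped DIO. The merged exons span 3.541 kb for Angptl4 and 10.478 kb for Lpl, and the longest annotated coding transcripts 3.308 and 4.115 kb. The transcript lengths give lower ratios. In CPM without lengths, Angptl4 was below Lpl in RYGB 2, at 30.8 against 40.5, and above it in each other liver.

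Vldlr (ENSMUSG00000024924, chr19:27216484-27254231) encodes the very-low-density lipoprotein receptor, which binds triglyceride-rich particles. Its level was low, at 5.81, 13.0, 10.8, 3.28 and 4.66 CPM in DIO 1 to 5, 4.15, 1.64, 0.975 and 11.4 CPM in GB-IL 1 to 4, and 8.42, 3.35, 3.77, 4.47 and 32.2 CPM in RYGB 1 to 5. RYGB 5 was the highest of all, and the groups overlapped. Vldlr had a log2 fold change of -0.72 (SE 0.770) in GB-IL and 0.48 (SE 0.711) in RYGB against DIO, and -1.19 (SE 0.777) between the operated groups, with edgeR adjusted p of 0.563, 0.884 and 0.359. In GB-IL against DIO it was -1.75 without GB-IL 4 (edgeR adjusted p = 0.117, range over alternatives 0.117 to 0.992) and -0.38 without GB-IL 3. Without RYGB 5 the difference between RYGB and DIO turned, to -0.59. The difference between the operated groups was then -0.13, and without GB-IL 4 it was -2.23 (edgeR adjusted p = 0.0628, range over alternatives 0.0628 to 0.910).

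Lrp1 (ENSMUSG00000040249, chr10:127538161-127621148) encodes a large receptor that takes up remnants in hepatocytes and is also present in macrophages. It was at 612, 726, 734, 713 and 636 CPM in DIO 1 to 5, 723, 536, 1177 and 499 CPM in GB-IL 1 to 4, and 739, 834, 662, 859 and 701 CPM in RYGB 1 to 5. The groups overlapped, and GB-IL 3 was the highest of all. GB-IL 3 was also the liver with the highest macrophage and Kupffer cell sum, 3053 CPM, whose part in that value was not tested. Lrp1 had a log2 fold change of 0.10 (SE 0.239) in GB-IL and 0.15 (SE 0.226) in RYGB against DIO, and -0.05 (SE 0.240) between them, with edgeR adjusted p of 0.811, 0.886 and 0.913. Without GB-IL 3 the value for GB-IL against DIO turned to -0.22, and without GB-IL 2 or 4 that between the operated groups turned to 0.06 or 0.09.

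Per kilobase of merged exons the DIO means of the other members were 57.3 ± 23.3 for Angptl4, 38.6 ± 3.18 for Lrp1, 7.61 ± 2.32 for Gpihbp1, 3.61 ± 0.671 for Lmf1 and 0.747 ± 0.415 for Vldlr (SD, n = 5). The order of genes on this scale depends on the length used: the merged exons of Lmf1 span 13.589 kb and its longest annotated coding transcript 2.003 kb. In DIO the coefficient of variation was 3.94% for Lipc and 8.24% for Lrp1, and 59.5% for Lipg. In GB-IL it was 83.3% for Lipc and 139.9% for Lipg.

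**Figure D2:**
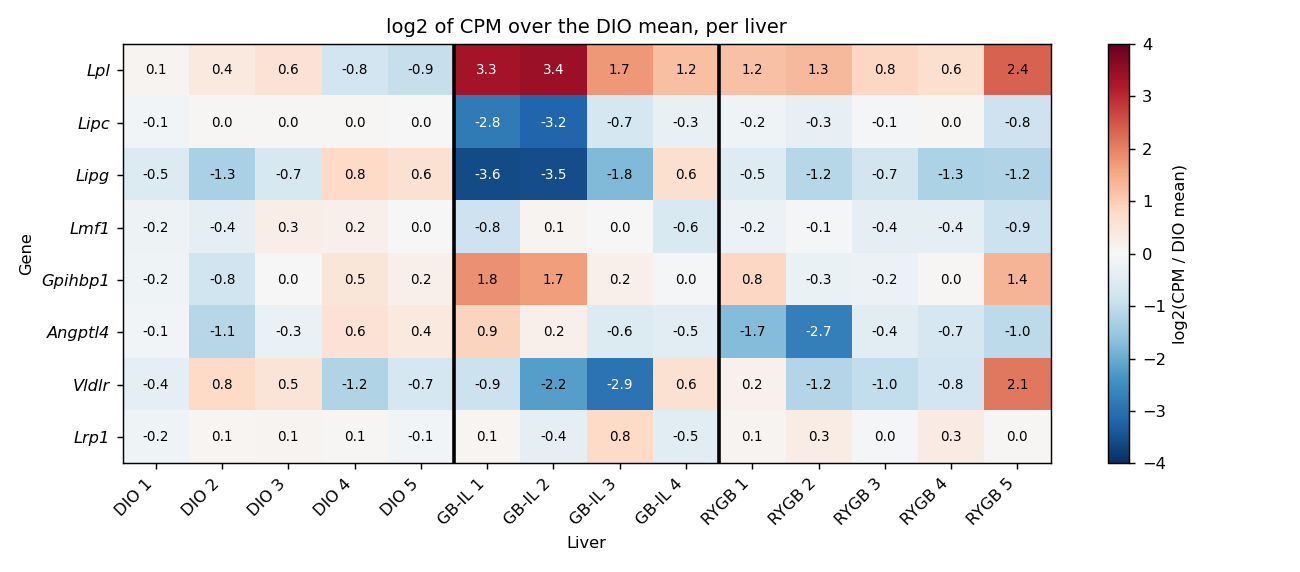
Each cell is the log2 of a liver's CPM over the mean CPM of the 5 DIO livers, for each member (rows) and liver (columns, by group), with red for higher and blue for lower. GB-IL 1 and 2 combined high Lpl and Gpihbp1 with low Lipc and Lipg, and RYGB 5 stood out for Lpl and Vldlr.

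Across the whole table, 465 genes differed between GB-IL and DIO (449 higher, 16 lower). The split differed between fits, with 2228 higher and 1344 lower without GB-IL 4, and 1107 higher and 185 lower by DESeq2. At an unadjusted p under 0.05, which 23.1% of genes met, 3 members did so: Lpl, Lipc and Gpihbp1. For 2 members, Lpl and Lipc, the GB-IL and DIO livers did not overlap, as for 4.17% of all genes. The count of 465 became 0 without GB-IL 1, GB-IL 2 or any one DIO liver, 294 without RYGB 3 and 3572 without GB-IL 4, where 4 members passed: Lpl, Lipc, Lipg and Gpihbp1.

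In RYGB against DIO, edgeR called 0 genes (0%) and 0 members, beside 1241 genes (8.71%) and 2 members, Lpl and Angptl4, at an unadjusted p under 0.05. Of the other tools, DESeq2 called 97 genes, the edgeR exact test 43 and limma voom with sample quality weights 1690. Only voom called members: Lpl at 1.52, Lipg at -1.24 and Angptl4 at -1.46 (adjusted p = 0.0117, 0.0399 and 0.0268, each the lowest over the alternatives, whose highest were 0.920, 0.999 and 0.900). Lpl was the 1 member whose groups did not overlap, as in 3.53% of genes.

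In GB-IL against RYGB, edgeR also called 0 genes (0%) and 0 members, beside 3147 genes (22.1%) and 3 members, Lpl, Lipc and Angptl4, at an unadjusted p under 0.05. DESeq2 called 845 genes, the edgeR exact test 678 and limma voom 115, with 0 members each. No member had groups that did not overlap (0 of 8, against 2.84% of genes). Without GB-IL 4, edgeR called 3120 genes and 4 members, Lpl, Lipc, Lipg and Angptl4, and without GB-IL 3 it called 24 genes.

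Members were compared with each other over the 14 livers by log2 CPM, as a description. The livers share groups, and GB-IL 1 and 2 lie far from the rest, so each value is also given over the other 12. Among 28 pairs, Lpl and Lipc had a Pearson r of -0.86 (Spearman rho -0.86), and -0.81 without those livers. Lpl and Lipg had -0.85 (rho -0.66), and -0.64 without them. Lipc and Lipg had 0.84 (rho 0.49), and 0.40 without them, so that relation rested largely on GB-IL 1 and 2. Lipc and Gpihbp1 had -0.81 (rho -0.45), and -0.54 without them. Lpl and Gpihbp1 had 0.70 (rho 0.44), and 0.34 without them. Lipg and Lrp1 had -0.17 (rho -0.32) over all 14 and -0.71 over the 12. Lpl and Angptl4 had -0.01 (rho -0.16) over all 14 and -0.62 over the 12.

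The genes with the most similar profile were named for each member by the highest Pearson r over the 14 livers. They are the highest of the 14252 genes tested, so the values are a description only. For Lpl these were Atf3 at 0.947, Rbm3 at 0.936 and Scd2 at 0.934, and over the 12 livers 0.930, 0.880 and 0.915. For Lipc they were 2810007J24Rik, Pipox and Gm20319, at 0.986, 0.986 and 0.984, and 0.858, 0.899 and 0.859 over the 12. For Gpihbp1 they were Kctd17 at 0.960, Gdf10 at 0.951 and Rasip1, an endothelial gene, at 0.944. For Angptl4 they were Slc22a5, a carnitine transporter, at 0.857, Mfsd2a at 0.855 and Rbm18 at 0.842. Over the 12 livers these were 0.917, 0.909 and 0.951 for Gpihbp1, and 0.817, 0.810 and 0.823 for Angptl4.

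For Lipg the most similar were Acadm, a dehydrogenase of fatty acid oxidation, at 0.940, Pafah2 at 0.939 and Ptcd3 at 0.930. For Lmf1 they were Abhd14a at 0.960, Exoc7 at 0.953 and Ngrn at 0.948. Vldlr was closest to Zmat3 at 0.902, Acot2 at 0.866 and Nmt2 at 0.848. Lrp1 had the lowest values of the members over the 14 livers, with Slc13a5 at 0.838, C2 at 0.818 and Zcchc8 at 0.798. Without GB-IL 1 and 2 the values, in the same order of genes, were 0.828, 0.842 and 0.916 for Lipg and 0.951, 0.941 and 0.940 for Lmf1. They were 0.893, 0.855 and 0.828 for Vldlr and 0.871, 0.855 and 0.809 for Lrp1.

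Other genes of the pathway were taken from lists and described by counts and medians, beside medians over all genes of 0.04 for GB-IL and 0.01 for RYGB against DIO. Counts at an unadjusted p under 0.05 stand beside the 23.1% of all genes that met it in GB-IL and the 8.71% in RYGB. Counts that passed by edgeR stand beside 3.26% of all genes in GB-IL and 0% in RYGB. Of 10 apolipoproteins and plasma inhibitors tested, which activate or restrain lipoprotein lipase, 0 passed in either comparison by edgeR, and 1 and 3 had an unadjusted p under 0.05. Their median log2 fold change was -0.44 in GB-IL and -0.28 in RYGB. Apoc3, an inhibitor of the lipase, was at 1211 ± 245 CPM in RYGB and 1911 ± 402 CPM in DIO (log2 fold change -0.66, edgeR adjusted p = 0.507). Angptl6 and Apoc1 had -1.02 and -0.54 in GB-IL, none passing. Gm6484, also of this list, had 1.13 in RYGB and -0.70 in GB-IL, neither passing. Between the operated groups Gm6484 was at 16.6 ± 9.67 CPM in GB-IL and 59.2 ± 28.9 CPM in RYGB. That log2 fold change was -1.83 and did not pass either (edgeR adjusted p = 0.107).

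Of 12 genes for folding and processing, 0 passed, with medians of 0.04 in GB-IL and -0.05 in RYGB, and 2 in each had an unadjusted p under 0.05. Sort1, encoding the sorting receptor sortilin, was at 18.8 ± 8.17 CPM in RYGB and 7.17 ± 2.49 CPM in DIO, with 4 of 5 RYGB livers above every DIO liver (log2 fold change 1.39, edgeR adjusted p = 0.331). Pcsk6, a proprotein convertase, had -1.03 in GB-IL and -0.73 in RYGB, with edgeR adjusted p of 0.101 and 0.547. Pcsk7, another convertase, had -0.40 in GB-IL.

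Heparan sulfate chains bind the lipases at the cell surface. Of 20 genes tested for these proteoglycans, 1 passed in GB-IL, beside 3.26% of all genes, with 12 higher and 8 lower and a median of 0.17. That gene was Gpc3, a glypican, higher by 3.13 (SE 0.640, edgeR adjusted p = 0.0278) in GB-IL, at 11.3 ± 9.82 CPM against 1.29 ± 0.698 CPM in DIO, with 3 of 4 livers above every DIO liver. Without GB-IL 1 or 2 its edgeR adjusted p was 0.0845 or 0.0633, and without DIO 1, 2, 3, 4 or 5 it was 0.0728, 0.0716, 0.0636, 0.0830 or 0.0942. Over all alternatives it ranged from 6.91e-05 to 0.539, the last with GB-IL 1 and 2 left out, where the log2 fold change was 1.18. At an unadjusted p under 0.05 there were 2 higher and 2 lower. Hs6st1, a sulfotransferase of these chains, had -0.70 with 4 of 4 livers below every DIO liver (edgeR adjusted p = 0.128). In RYGB 0 passed by edgeR and 3 had an unadjusted p under 0.05, with a median of 0.08. Gpc6 and Hspg2 had 1.16 and 0.89 (edgeR adjusted p = 0.387 and 0.468).

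Among 14 other lipoprotein receptors and partners, 0 passed in either comparison, with medians of 0.09 in GB-IL and -0.01 in RYGB, and 2 in each had an unadjusted p under 0.05. Lrp4 had -1.13 in GB-IL, and Lrp5 had 0.75 in RYGB with 5 of 5 livers above every DIO liver (edgeR adjusted p = 0.121 and 0.468).

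Of 13 other lipases, esterases and lipase cofactors tested, among them the inhibitor G0s2 and the coactivator Abhd5 of adipose triglyceride lipase, 0 passed. In GB-IL 11 were lower and 2 higher, with a median of -0.95, and 5 had an unadjusted p under 0.05. In RYGB 10 were lower and 3 higher, with a median of -0.43, and 1 had such a p. Mgll, monoglyceride lipase, was at 94.6 ± 104 CPM in GB-IL, 162 ± 24.1 CPM in RYGB and 252 ± 32.2 CPM in DIO, with log2 fold changes of -1.41 and -0.64 (edgeR adjusted p = 0.119 and 0.718). Pnpla2, adipose triglyceride lipase, had 1.50 in GB-IL, and Lipe, hormone-sensitive lipase, had -0.60 in RYGB (edgeR adjusted p = 0.124 and 0.547).

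Angptl4 is a PPAR target, and 20 further targets were tested. None passed by edgeR (0 of 20 in each comparison), and 3 in each had an unadjusted p under 0.05. In GB-IL 17 were lower and 3 higher, with a median of -0.67. In RYGB 13 were lower and 7 higher, with a median of -0.42. Acot1, an acyl-CoA thioesterase, had -1.92 in GB-IL (edgeR adjusted p = 0.0580). Plin5, a lipid droplet protein, had -1.05 and Fabp4, a fatty acid binding protein, 2.19 in RYGB (edgeR adjusted p = 0.473 and 0.348). Fabp4 was at 47.7 ± 58.1 CPM in RYGB, where 3 of 5 livers exceeded the DIO range. Its level was 33.2 ± 13.5 CPM in GB-IL, where 4 of 4 did (log2 fold change 1.67, edgeR adjusted p = 0.130).

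Of 12 PPAR and LXR receptors and coregulators, 0 passed, with medians of -0.12 and -0.07, and 3 in GB-IL and 0 in RYGB had an unadjusted p under 0.05. The coactivator Ppargc1a had 1.08 in GB-IL and 0.58 in RYGB, and the receptor Rxrg -1.22 and -0.57. Angptl4 and Vldlr are also induced by hypoxia, and of 12 hypoxia response genes 1 passed in GB-IL, beside 3.26% of all genes. It was Hk2, a hexokinase, higher by 1.96 (SE 0.505, edgeR adjusted p = 0.0480) in 4 of 4 livers. That call was lost without GB-IL 1, 2 or 3 (edgeR adjusted p = 0.175, 0.0624 and 0.0682), without DIO 1 to 5 (0.0970, 0.0905, 0.0909, 0.112 and 0.131) and without RYGB 1 to 4 (0.0608, 0.0508, 0.0584 and 0.0566). Over all alternatives the adjusted p of Hk2 ranged from 0.00410 to 0.222. In GB-IL 3 higher and 1 lower had an unadjusted p under 0.05, and the median was -0.01, with 5 higher and 7 lower. There Slc2a1, a glucose transporter, had 1.28 (edgeR adjusted p = 0.103). In RYGB 0 passed by edgeR, 6 had an unadjusted p under 0.05 and the median was 0.75, with Egln3 at 1.28 and Ankrd37 at 2.32 (edgeR adjusted p = 0.479 and 0.507). Their RYGB levels were spread, at 34.2 ± 38.3 and 3.48 ± 5.26 CPM (SD, n = 5), and 3 of 5 livers were above every DIO liver for each.

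**Figure D3:**
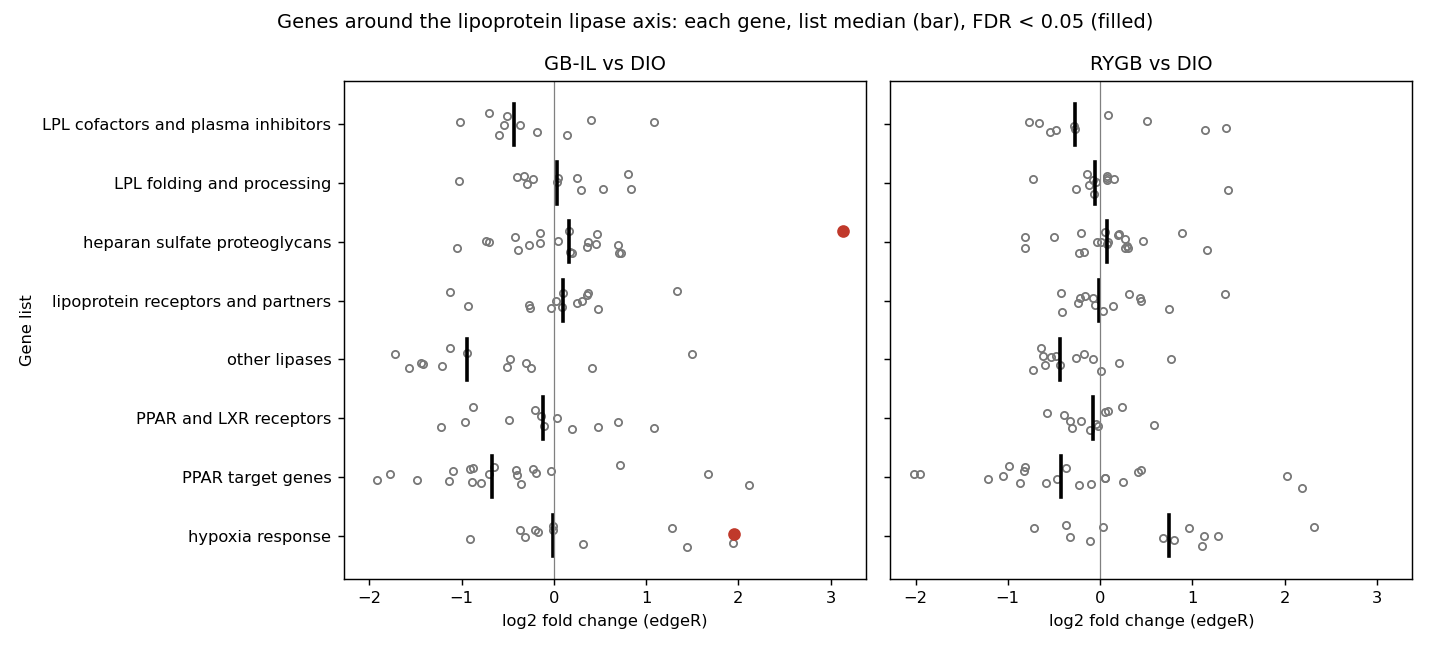
Log2 fold change (edgeR) of each gene of the pathway lists in GB-IL and in RYGB against the same DIO livers; each circle is a gene, spread vertically for display, the bar is the list median and filled circles passed a false discovery rate of 0.05. Gpc3 and Hk2 passed in GB-IL, and no listed gene passed in RYGB.

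The upstream sequence of Lipc is shown because Lipc had the largest log2 fold change in GB-IL against DIO among the 4 members with a promoter entry, Lipc, Lrp1, Lmf1 and Vldlr. The 250 bases before each RefSeq start were searched on both strands for the nuclear receptor half-site AGGTCA, which 14% of all 32851 windows held. Lipc has 2 starts, on the minus strand of chromosome 9 (GRCm38.p6), at windows chr9:70952222-70952471 and chr9:70934809-70935058, and capitals mark the half-site on either strand. The former held 0 matches and the latter 2. The windows of Lrp1, Lmf1 and Vldlr held 0. CAAAGTCCA (in 0.384% of windows), ACGTG (16.6%) and TATAAA (12.4%) had 0 matches in all 6 windows of these members, and CCAAT (33.8%) had 3 and 1 in the Lipc windows, 1 in a Vldlr window and 0 in the others. A match is a description of these letters only.

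Lipc upstream window 1: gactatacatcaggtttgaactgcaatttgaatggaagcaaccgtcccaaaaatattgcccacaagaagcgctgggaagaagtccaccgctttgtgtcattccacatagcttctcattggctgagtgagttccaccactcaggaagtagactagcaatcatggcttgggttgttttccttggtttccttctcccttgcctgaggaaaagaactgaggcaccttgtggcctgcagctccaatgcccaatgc
Lipc upstream window 2: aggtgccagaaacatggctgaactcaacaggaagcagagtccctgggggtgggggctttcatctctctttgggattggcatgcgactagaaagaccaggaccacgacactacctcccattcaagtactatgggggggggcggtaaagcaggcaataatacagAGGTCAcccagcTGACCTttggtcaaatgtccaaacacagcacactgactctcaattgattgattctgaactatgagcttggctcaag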

How the data were processed

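The authors deposited raw read counts per gene for 14 mouse livers. Per the study's methods, total RNA was amplified with a NuGEN Ovation kit, sequenced on an Illumina HiSeq, aligned to mm10 with TopHat 2 and counted with HTSeq; no source used here gave versions, strand setting or gene annotation. Sample labels mention a poly-A and a total RNA library kit without assigning livers to them. A set of 57 histone genes, a class whose transcripts mostly lack poly-A tails, summed to between 121 and 212 CPM in every liver. That sum cannot show which kit a liver had, since some histone transcripts may carry a tail. Lipc overlaps 3 other annotated genes, of which the 2 counted had at most 23 counts in a liver, and Lrp1 overlaps 1, with at most 2.

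Here, edgeR 4.0.16 (R 4.3.3) was used: filterByExpr, TMM scaling, 1 quasi-likelihood fit of 3 group means, and Benjamini-Hochberg adjustment over all genes tested (false discovery rate 0.05). The SE is the absolute log2 fold change over the square root of F. DESeq2 1.42.0 and limma 3.58.1 served as alternatives, with other scalings, no filter, the compared groups only, a replicate block and each liver left out. Scripts were tested on simulated data. Exon lengths and positions came from GENCODE M21, which matched 24701 of 25212 identifiers, and promoter windows from RefSeq (GRCm38.p6). Correlations used log2 CPM with a prior count of 0.5. None of the 26 within-group pairs of livers agreed within sampling noise (lowest chi-square per degree of freedom, 23.5).

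The members and gene lists were chosen with earlier results of these data known. Genes named beside the members were, per list, the 2 with the smallest p in each comparison with DIO, the 3 most similar to each member, and the most abundant gene of each marker list described; other marker genes named, G0s2 and Abhd5 were chosen after their values were seen. Some genes that this rule picks are not reported here.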

Additional observations from a re-analysis of the deposited data

Results flagged for a closer look

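In 3 of the 24 sets formed by 1 member in 1 group, a single liver lay far from the others. The measure was its gap to the nearest liver over the range of the group, in CPM without a log. Chance gives about 1 in 20 for normally distributed values, and whether CPM values are so was not tested. All 3 flagged livers were high, and on log2 CPM each of the 3 ratios is smaller. Lpl was high in RYGB 5 (gap ratio 0.757, 86.2 CPM), Vldlr was high in RYGB 5 (0.824, 32.2 CPM) and Lipg was high in GB-IL 4 (0.857, 34.6 CPM). RYGB 5 also had the highest endothelial, neutrophil, lipid-associated macrophage, stellate cell and erythroid sums of its group. Its hepatocyte, adipocyte, muscle and acinar sums were the highest of the group as well. The part of these cell types in the flagged values was not tested.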

How the results depend on the processing

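Of 552 alternative values for the 24 member log2 fold changes, 509 kept their direction and their side of the threshold. Another 23 reversed, 10 came to pass and 10 no longer passed. Only 1 of the 24 main values passed, Lpl in GB-IL against DIO, and all 10 lost calls were its own. It passed in 13 of 23 alternatives. The cause was not tested.

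Genes called in GB-IL against DIO numbered 1292 by DESeq2, 1127 by the edgeR exact test, and 0 both with the compared groups only and with GB-IL 1 and 2 left out (chosen after seeing the data), where 0 members were called. In RYGB against DIO they numbered 97 by DESeq2, 43 by the exact test, 1690 by voom (3 members) and 33 with the compared groups only. In GB-IL against RYGB they numbered 845, 678 and 115 by the same tools, and 51 with no filter. With each liver left out in turn they ranged from 0 to 3572, 0 to 5 and 0 to 3120 in these comparisons, and members called from 0 to 4 in GB-IL against DIO and against RYGB.

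Replicate numbers did not pair the livers: deviations of same-numbered livers correlated at -0.36 to 0.37, and 0 of 4, 0 of 5 and 1 of 4 livers correlated best with their own number. With the number as a replicate block, 1 gene and 0 members were called in GB-IL against DIO (Lpl 2.59, edgeR adjusted p = 0.0677), and Vldlr in RYGB against DIO was -0.27.

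Reversed values by voom were -0.48 for Angptl4 in GB-IL against DIO, -0.0473 for Gpihbp1 and -0.0727 for Vldlr in RYGB against DIO, and 0.14 for Lrp1 in GB-IL against RYGB. With GB-IL 1 and 2 left out they were -0.53 for Angptl4 against DIO, and 0.82 for Lipg, -0.45 for Gpihbp1 and 0.11 for Lrp1 against RYGB. With single livers left out, values in GB-IL against DIO ranged from -0.24 to 0.33 for Angptl4 and -0.22 to 0.24 for Lrp1. Vldlr in RYGB against DIO ranged from -0.59 to 0.76. In GB-IL against RYGB, Lipg ranged from -1.74 to 0.31, Lmf1 from -0.0866 to 0.22 and Lrp1 from -0.37 to 0.0909. Vldlr had the lowest count of the members, 23 in 1 liver.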
